A study of Homo sapiens with 9 samples.

Results

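Toll-like receptors sense microbial lipids and nucleic acids, and most of them signal through the adaptor protein MYD88. A set of 10 genes of this pathway was followed after depletion of the histone demethylase LSD1 in a B-cell lymphoma line: the receptors TLR1, TLR6, TLR7, TLR9 and TLR10, the receptor chaperone UNC93B1, the adaptor MYD88, the kinases IRAK4 and IRAK1, and the ubiquitin ligase TRAF6. They were taken by symbol from a deposited table of read counts that lists 26816 genes. All 10 were found once each, and all 10 passed the filter on low counts that left 15725 genes for testing.

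The cells were OCI-Ly1, an established human line derived from a germinal-centre type of diffuse large B-cell lymphoma. Groups were cells with sh68, cells with sh72, and cells with a scrambled shRNA (shSCR), at 3 biological replicates each. sh68 and sh72 are different shRNAs against KDM1A, the gene of LSD1, named by the last digits of their clone names. All 9 cultures carried a pLKO1 vector and had been selected with puromycin, so the shSCR cells share the vector and the drug, and cells without a vector were not analysed here. No time after infection and no Toll-like receptor ligand is given in the labels. What was sequenced was polyadenylated RNA, so the values are RNA levels and not protein or signalling.

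A ligand brings the intracellular domains of 2 receptor chains together, MYD88 binds them and gathers IRAK4 and IRAK1 into a complex called the myddosome, and IRAK1 then engages TRAF6, which leads on to NF-kB and MAP kinases. TLR1 and TLR6 pair with TLR2 at the cell surface to sense lipopeptides, and TLR10 is a related surface receptor. TLR7 and TLR9 sense single-stranded RNA and unmethylated CpG DNA in endosomes, and both need UNC93B1 to get there. B cells use the pathway to respond to microbial nucleic acid alongside their antigen receptor, and some diffuse large B-cell lymphomas carry activating mutations of MYD88.

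The libraries held 29506767 to 35270849 counted reads, and libraries of 1 construct correlated with each other, across genes, at a Pearson r of 0.9948 or more. KDM1A averaged 24.4 ± 1.26 CPM (counts scaled to the library total) with sh68, 20.9 ± 1.82 CPM with sh72 and 121 ± 1.43 CPM with shSCR (SD, n = 3 each), so 20.2% and 17.2% of the control level was left. Against shSCR, 27.4% of all genes tested were higher and 28.1% lower with sh68, and 24.7% and 26.3% with sh72. All 6 B-cell marker genes were tested. Their summed level was 4123 to 4247 CPM with sh68, 2605 to 2772 CPM with sh72 and 4155 to 4293 CPM with shSCR, and all 6 passed the test as lower with sh72. The sum of the 4 germinal-centre B-cell markers was 2036 to 2077 CPM with sh68, 1417 to 1487 CPM with sh72 and 1811 to 1890 CPM with shSCR, with 2 of the 4 higher and 1 lower with sh68, and 3 lower with sh72. Of 4 markers of plasmacytoid dendritic cells, which also use TLR7 and TLR9, CLEC4C and NRP1 are rows of the table, and they summed to at most 0.0614 CPM in any library. Markers of other cell types were low, but some moved with the constructs. The 5 of monocytes and macrophages summed to 0.993 to 1.35 CPM with sh68, 0.525 to 0.623 CPM with sh72 and 0.340 to 0.450 CPM with shSCR. The 3 of fibroblasts summed to 1.23 to 1.57, 1.25 to 3.22 and 0.278 to 0.554 CPM in the same order, 2 read markers of NK cells to 0.823 to 1.17, 1.08 to 1.45 and 0.216 to 0.277 CPM, and the 4 of T cells to 0.256 to 0.653, 0.291 to 0.623 and 0.0637 to 0.185 CPM. The 4 of epithelium summed to 7.52 to 8.88 CPM with sh68, 15.5 to 16.1 CPM with sh72 and 15.2 to 18.1 CPM with shSCR, and of these EPCAM was lower with sh68, by -1.03 on the log2 scale. The part of any of these in the results was not tested. In a culture of one line, fewer cells that express a gene and less RNA per cell cannot be told apart.

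Levels of different genes were set side by side as RPKM, which is CPM scaled to the exonic length. In shSCR cells TLR10 stood highest at 53.1 ± 1.00 RPKM, above IRAK1 at 45.9 ± 1.56 and MYD88 at 38.9 ± 0.573. UNC93B1 followed at 24.2 ± 1.09, TLR9 at 15.6 ± 0.608, IRAK4 at 15.1 ± 0.339 and TLR1 at 9.03 ± 0.188. TRAF6 had 4.87 ± 0.119 RPKM, TLR6 had 4.54 ± 0.111 and TLR7 had 0.830 ± 0.0628 (SD, n = 3 each). Only the libraries of TLR9 and IRAK4 overlapped between neighbours in this order. Per length, as counted, TLR10 was thus the highest of the 5 receptors in this line and TLR7 the lowest. The place of TLR9 is uncertain. A second annotated gene covers 3341 of its 3870 exonic bases, and if reads there were not counted, its level per length is understated. With sh68, IRAK4 at 18.3 ± 0.704 RPKM stood above UNC93B1 at 14.0 ± 0.764 and TLR9 at 9.11 ± 0.281.

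**Figure D1:**
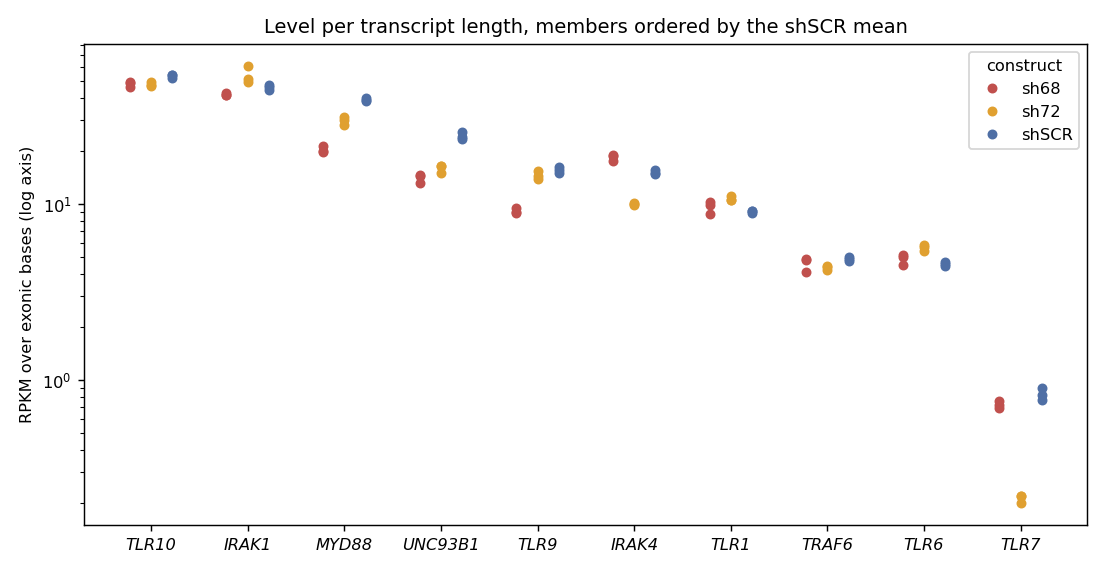
RPKM of the 10 genes on a log axis, in order of their shSCR mean, with a point for each library of sh68, sh72 and shSCR. TLR10, IRAK1 and MYD88 are at the top, TLR7 is far below the others, and its sh72 points lie apart at about 0.213 RPKM.

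Taken as shares of the 5 receptors' summed RPKM, TLR10 held 66.3%, 60.5% and 63.9% with sh68, sh72 and shSCR. TLR9 held 12.6%, 18.4% and 18.7% in the same order, and TLR7 held 1.01%, 0.271% and 1.00%. The receptor sum itself was 72.2 ± 1.94 RPKM with sh68, 78.6 ± 2.18 with sh72 and 83.1 ± 1.30 with shSCR (SD, n = 3 each). TLR1 held 13.3%, 13.6% and 10.9%, and TLR6 held 6.78%, 7.19% and 5.47%. The TLR9 share was thus lowest under sh68, the TLR7 and TLR10 shares were lowest under sh72, and the TLR1 and TLR6 shares were lowest under shSCR. All these shares rest on the TLR9 level as counted, with the limit given above.

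Sequence upstream of the RefSeq start site was available on GRCh38.p14 for 6 of the 10 genes: TLR6, TLR9, MYD88, IRAK4, IRAK1 and TRAF6. The windows of MYD88 and TLR9 are printed because both genes were lower with sh68, and each holds a motif of a factor family known in B cells. In MYD88 (chr3:38138411-38138660, plus strand) the capitals mark a GAAA pair with 2 bases of any kind between the repeats, the core of the interferon-stimulated response element that interferon regulatory factors bind. In TLR9 (chr3:52225646-52225895, minus strand) the capitals mark ATGCAAAT, the octamer bound by OCT1 and OCT2. Both are written 5′ to 3′ on the gene's strand, and each ends at the base before the RefSeq start. By the GENCODE 29 annotation MYD88 begins at 38138478 and TLR9 at 52226163, so both marked matches lie inside the annotated genes.
MYD88: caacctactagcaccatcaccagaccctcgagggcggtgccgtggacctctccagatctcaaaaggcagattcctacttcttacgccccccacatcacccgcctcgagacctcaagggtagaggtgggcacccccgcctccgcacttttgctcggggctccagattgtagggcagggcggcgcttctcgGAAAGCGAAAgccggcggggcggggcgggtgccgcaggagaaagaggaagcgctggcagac
TLR9: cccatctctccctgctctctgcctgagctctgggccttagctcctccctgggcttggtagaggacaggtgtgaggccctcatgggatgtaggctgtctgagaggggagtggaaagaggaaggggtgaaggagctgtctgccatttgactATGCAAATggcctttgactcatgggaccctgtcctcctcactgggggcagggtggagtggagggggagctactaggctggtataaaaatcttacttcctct
The MYD88 match lies 61 to 52 bases before the RefSeq start and the TLR9 match 101 to 94 bases before it. On both strands, the spaced GAAA pair was found in 1061 of 35116 promoters of the same length, or 3.02%, and ATGCAAAT in 573, or 1.63%. The 2 motifs do not share letters at either site. Neither was found in the windows of TLR6, IRAK4, IRAK1 and TRAF6, although IRAK1 also passed the test as lower with sh68. The motifs were chosen with these sequences in view, and a match is a description of letters, not of binding. A link between a match and the fall with sh68 was not tested.

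Against shSCR, sh68 changed 6 of the 10 genes and sh72 changed 9, at an adjusted p below 0.05 by edgeR's quasi-likelihood test over all genes. With sh68, 1 gene was higher and 5 were lower. With sh72, 3 were higher and 6 lower. Many other genes also passed. With sh68, 55.5% of all genes tested did, 27.4% as higher and 28.1% as lower, and with sh72 51.0%, 24.7% as higher and 26.3% as lower. The count of 6 with sh68 is thus near the background. The count of 9 with sh72 is above it, which was not tested, and the B-cell markers that were lower with sh72 moved with it. The median log2 fold change of the 10 genes was -0.14 with sh68 and -0.16 with sh72, against -0.0082 and -0.011 over all genes tested. The median size of the change, without its sign, was 0.17 with sh68 and 0.28 with sh72, against 0.25 and 0.23 over all genes.

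Only MYD88, UNC93B1 and TLR10 were lower with both shRNAs and passed the test with each. The 2 comparisons share their shSCR libraries, so the second is not independent of the first. The share of all genes tested that were lower with both shRNAs was not counted, so there is no background for these genes. IRAK4 and IRAK1 passed with both shRNAs but in opposite directions, and TLR1, TLR6, TLR7, TLR9 and TRAF6 passed with 1 of them.

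**Figure D2:**
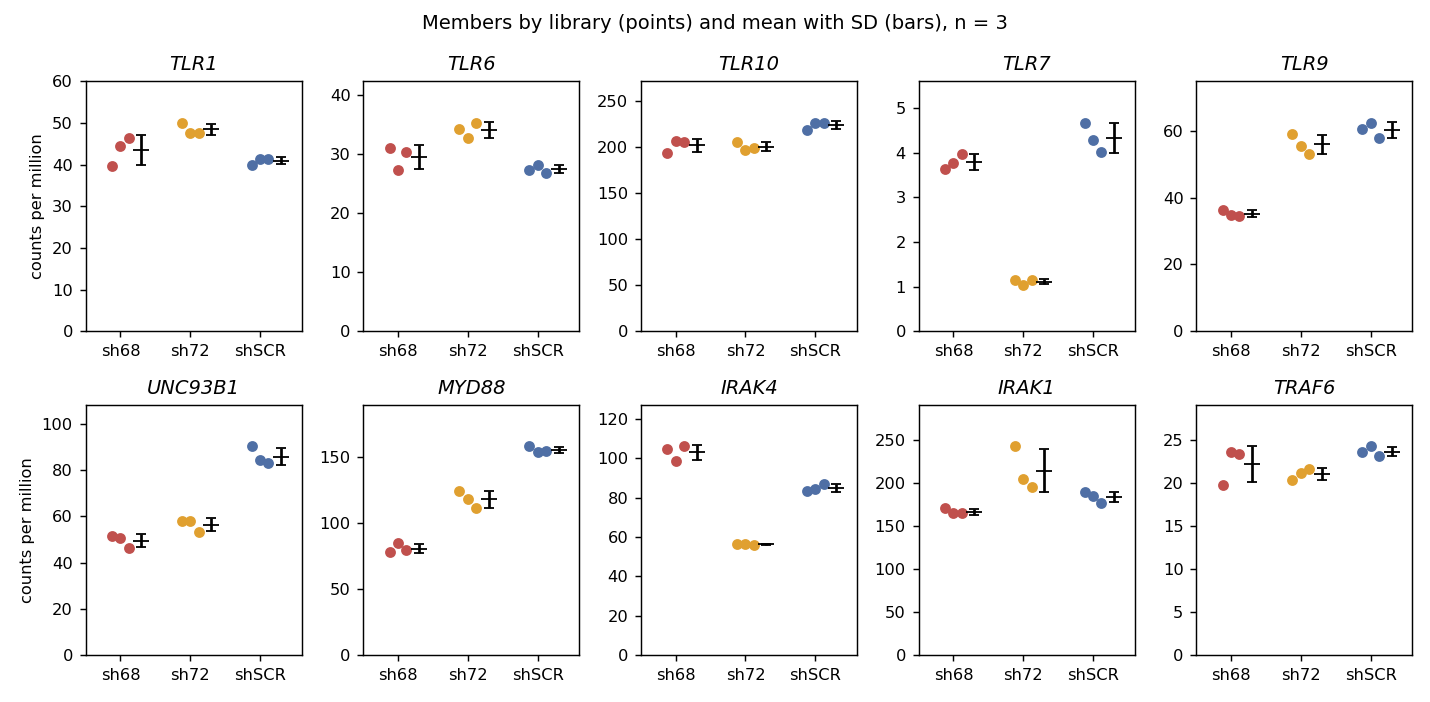
CPM of each gene on its own linear axis from 0, with a point for each library of sh68, sh72 and shSCR and bars for the mean and SD (n = 3). All 6 libraries of the shRNAs against KDM1A lie below shSCR for MYD88, UNC93B1, TLR10 and TLR7, whereas IRAK4 lies above shSCR with sh68 and below it with sh72.

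Among the surface receptors, TLR1 and TLR6 were slightly higher with sh72, and TLR10 was slightly lower with both shRNAs. TLR1, on chromosome 4 at 38790677 to 38856817 on the minus strand of GRCh38, had 39.6, 44.4 and 46.5 CPM with sh68, 50.1, 47.7 and 47.6 CPM with sh72, and 40, 41.4 and 41.5 CPM with shSCR. The sh72 libraries all lay above shSCR, and the sh68 libraries overlapped it. For sh72 this gave a log2 fold change of 0.24 ± 0.055 (SE, adjusted p = 0.000606), and for sh68 one of 0.09 ± 0.055 (adjusted p = 0.174).

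TLR6 lies on the same chromosome and strand at 38823715 to 38856817, so its annotated start, at the upper end, is also that of TLR1. TLR6 had 31.0, 27.2 and 30.3 CPM with sh68, 34.2, 32.7 and 35.3 CPM with sh72, and 27.3, 28.1 and 26.8 CPM with shSCR. As for TLR1, all sh72 libraries were above shSCR and sh68 overlapped it. Its log2 fold change reached 0.32 ± 0.057 under sh72 (adjusted p = 6.58e-05), and 0.11 ± 0.058 under sh68 (adjusted p = 0.120). The 2 genes share 57 exonic bases on the same strand, and 5.33% of the 50-base words of TLR1 transcripts also occur in TLR6, so a small part of their reads could be split between them. The ratio of TLR1 reads to TLR6 reads was 1.48 ± 0.182 with sh68, 1.42 ± 0.0642 with sh72 and 1.5 ± 0.0468 with shSCR (SD, n = 3 each), and the sh68 libraries spanned all the others.

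TLR10, the receptor with the most reads and a neighbour of TLR1 at a distance of 7686 bases, had 194, 207 and 205 CPM with sh68, 206, 196 and 199 CPM with sh72, and 219, 226 and 226 CPM with shSCR. Every library of either shRNA lay below every shSCR library, and sh72 overlapped sh68. On the log2 scale the change came to -0.15 ± 0.037 for sh68 (adjusted p = 0.00167) and to -0.16 ± 0.037 for sh72 (adjusted p = 0.00105). Thus 3 genes from one stretch of a chromosome did not move one way. TLR10 fell to 90.2% and 89.6% of the control mean with sh68 and sh72, while neither TLR1 nor TLR6 fell.

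The endosomal receptors separated the 2 shRNAs. TLR7, on chromosome X at 12867083 to 12890380, had 118, 132 and 140 reads with sh68, 39, 33 and 35 reads with sh72, and 151, 124 and 126 reads with shSCR. Scaled to depth these were 3.62, 3.76 and 3.97 CPM with sh68, 1.14, 1.04 and 1.15 CPM with sh72, and 4.67, 4.29 and 4.02 CPM with shSCR. The sh72 libraries stood far below the rest, at 25.6% of the shSCR mean, and the sh68 libraries lay just below shSCR. This is a log2 fold change of -1.96 ± 0.15 for sh72 (adjusted p = 1.36e-10) and of -0.19 ± 0.12 for sh68 (adjusted p = 0.180). The difference between the shRNAs, sh72 minus sh68, was -1.77 ± 0.15 on the log2 scale (adjusted p = 6.40e-10).

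TLR9, on chromosome 3 at 52221080 to 52226163 on the minus strand, showed the opposite order. It had 36.5, 34.9 and 34.4 CPM with sh68, 59.1, 55.6 and 53.2 CPM with sh72, and 60.5, 62.5 and 57.8 CPM with shSCR. The sh68 libraries stood apart from all others at 58.5% of the shSCR mean, and the sh72 libraries overlapped shSCR at 92.9%. Under sh68 the log2 fold change was -0.77 ± 0.051 (adjusted p = 6.26e-12), under sh72 it was -0.11 ± 0.049 (adjusted p = 0.0795), and the difference sh72 minus sh68 was 0.67 ± 0.051 (adjusted p = 8.75e-11). The sh72 value is close to the threshold, and without sh72 replicate 1 it was -0.15 with an adjusted p of 0.0170. GENCODE 29 annotates a second gene, AC097637.1, over 3341 of the 3870 exonic bases of TLR9 on the same strand, which is not a row of the table, so how reads there were assigned is unknown.

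Read for read, TLR7 stood to TLR9 as 0.107 ± 0.00809 with sh68, 0.0198 ± 0.00150 with sh72 and 0.0718 ± 0.00469 with shSCR (SD, n = 3 each). The libraries of the 3 constructs did not overlap in this ratio, which was above shSCR with sh68 and below it with sh72. How many other pairs of genes do so was not counted. TLR9 stood to TLR10 as 0.175 ± 0.0115, 0.279 ± 0.0105 and 0.269 ± 0.0121 with sh68, sh72 and shSCR, which sets sh68 alone apart. Depth limits TLR7 most, since its sh72 libraries hold 33 to 39 reads.

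UNC93B1, the chaperone that carries TLR7 and TLR9 out of the endoplasmic reticulum, fell under either shRNA. Its position is chromosome 11 at 67991104 to 68004982 on the minus strand. It had 51.5, 50.6 and 46.5 CPM with sh68, 58.1, 58.1 and 53.2 CPM with sh72, and 90.3, 84.6 and 83.0 CPM with shSCR. All 6 libraries with an shRNA against KDM1A were well below all 3 controls, at 57.6% and 65.7% of the shSCR mean for sh68 and sh72. In log2 terms the fall was -0.80 ± 0.051 for sh68 (adjusted p = 3.42e-12) and -0.61 ± 0.050 for sh72 (adjusted p = 5.44e-10). The difference between shRNAs was small, at 0.19 ± 0.052 for sh72 minus sh68 (adjusted p = 0.00303). Of the 50-base words of UNC93B1 transcripts, 11.8% also occur in UNC93B pseudogenes, none of which is a row of the table under that name.

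MYD88, the adaptor itself, fell with both shRNAs and further with sh68. It lies on chromosome 3 at 38138478 to 38143022 on the plus strand, and no 50-base word of its transcripts occurs in another annotated gene. It had 78.0, 84.8 and 79.1 CPM with sh68, 124, 118 and 111 CPM with sh72, and 158, 154 and 155 CPM with shSCR. The 3 constructs formed 3 separate ranks, with sh68 lowest and sh72 between it and shSCR, at 51.9% and 75.9% of the control mean. Under sh68 this was a log2 fold change of -0.95 ± 0.044 (adjusted p = 9.64e-15), under sh72 one of -0.40 ± 0.043 (adjusted p = 4.81e-08). The difference between the shRNAs was 0.55 ± 0.044 for sh72 minus sh68 (adjusted p = 2.38e-10). KDM1A itself had slightly fewer reads left with sh72 than with sh68 (sh72 minus sh68 -0.23 ± 0.061, adjusted p = 0.00261). MYD88, UNC93B1 and TLR9 were lowest with sh68. TLR7, TLR10 and TRAF6 had means in the KDM1A order, although the shRNAs did not differ past the threshold in TLR10 and TRAF6. A link between these levels and the depth of KDM1A depletion was not tested.

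The 2 kinases of the myddosome moved in opposite ways, and each moved in opposite ways with the 2 shRNAs. IRAK4, the kinase that MYD88 binds first, had 104, 98.5 and 106 CPM with sh68, 56.2, 56.5 and 55.7 CPM with sh72, and 83.3, 84.2 and 87.0 CPM with shSCR. The sh68 libraries were all above shSCR and the sh72 libraries all below it, at 121% and 66.2% of the control mean. The change for sh68 was 0.28 ± 0.041 on the log2 scale (adjusted p = 3.79e-06) and that for sh72 -0.60 ± 0.043 (adjusted p = 4.65e-11), which makes a difference of -0.87 ± 0.042 for sh72 minus sh68 (adjusted p = 1.99e-14). The gene lies on chromosome 12 at 43758944 to 43789543 on the plus strand.

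IRAK1, the kinase that IRAK4 phosphorylates and that passes the signal to TRAF6, had 171, 165 and 165 CPM with sh68, 243, 205 and 195 CPM with sh72, and 189, 185 and 177 CPM with shSCR. The sh68 libraries lay just below shSCR and the sh72 libraries above it, with sh72 replicate 1 well above the other 2. Under sh72 IRAK1 changed by 0.22 ± 0.054 on the log2 scale (adjusted p = 0.00132), and 0.12 without that library (adjusted p = 0.0107). Under sh68 the value was -0.14 ± 0.054 (adjusted p = 0.0323). This last call is weak: it was lost with DESeq2 (adjusted p = 0.0538) and when any of 6 libraries was left out, namely all 3 of sh68, shSCR replicates 1 and 2, or sh72 replicate 2, with adjusted p of up to 0.172. IRAK1 lies on chromosome X at 154010500 to 154019980 on the minus strand.

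The ratios of reads within a library show the unequal changes in this complex. MYD88 stood to IRAK4 as 0.785 ± 0.0659 with sh68, 2.10 ± 0.106 with sh72 and 1.83 ± 0.0603 with shSCR. IRAK1 stood to IRAK4 as 1.62 ± 0.0601, 3.82 ± 0.436 and 2.17 ± 0.121 with sh68, sh72 and shSCR (SD, n = 3 each). Both ratios were below shSCR with sh68 and above it with sh72, with no overlap between libraries. IRAK4 is the divisor in both and itself rose with sh68 and fell with sh72, so the ratios are not independent. How many other pairs of genes separate in this way was not counted. These are ratios of read numbers and do not give the ratio of molecules, since the genes differ in length.

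TRAF6, the ubiquitin ligase that IRAK1 engages, moved little. It lies on chromosome 11 at 36487027 to 36510272 on the minus strand and had 19.9, 23.6 and 23.4 CPM with sh68, 20.4, 21.2 and 21.7 CPM with sh72, and 23.7, 24.3 and 23.1 CPM with shSCR. The sh72 libraries were all below shSCR, and sh68 overlapped it. A log2 fold change of -0.17 ± 0.066 for sh72 (adjusted p = 0.0376) stands beside -0.09 ± 0.065 for sh68 (adjusted p = 0.271). The sh72 call was lost with DESeq2 (adjusted p = 0.0867) and when any library other than sh68 replicate 1 was left out, with adjusted p of up to 0.142.

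Set directly against each other, the 2 shRNAs differed in 8 of the 10 genes. TLR1, TLR6, TLR9, UNC93B1, MYD88 and IRAK1 were higher with sh72 than with sh68, and TLR7 and IRAK4 were lower. Over all genes tested 56.2% passed in this contrast, 27.2% as higher and 29.0% as lower with sh72. The median log2 difference of the 10 genes was 0.17, and -0.011 over all genes. TLR10 gave -0.01 ± 0.037 (adjusted p = 0.837) and TRAF6 -0.08 ± 0.066 (adjusted p = 0.308), values that do not show that the shRNAs act alike there. The TLR1 difference of 0.15 ± 0.054 (adjusted p = 0.0171) was no longer past the threshold without sh68 replicate 1, at 0.10 with an adjusted p of 0.128, or without sh72 replicate 1, at 0.13 with an adjusted p of 0.0552.

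**Figure D3:**
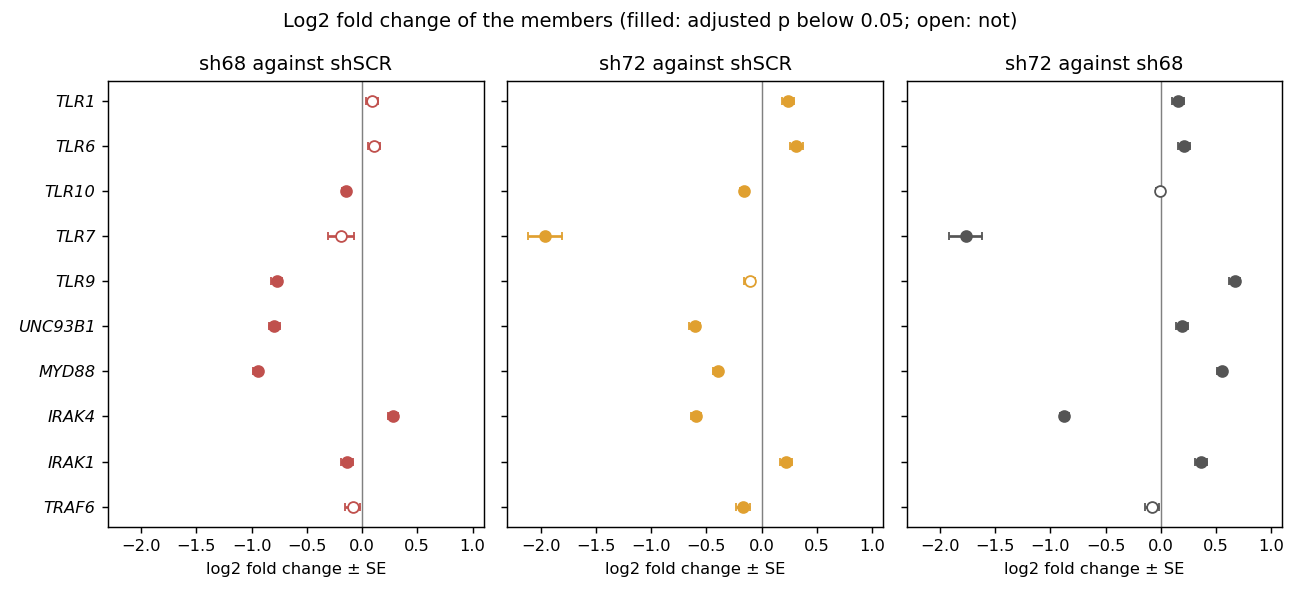
Log2 fold change with its SE for the 10 genes, in panels for sh68 against shSCR, sh72 against shSCR and sh72 against sh68, filled where the adjusted p was below 0.05. TLR7 at -1.96 is far out with sh72 and MYD88 at -0.95 leads with sh68, and IRAK4 changes side between the first panels.

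Averaged over both shRNAs and set against shSCR, 8 of the 10 genes passed, 2 as higher and 6 as lower, where 52.3% of all genes passed, 24.9% as higher and 27.5% as lower. UNC93B1 at -0.70 ± 0.043 (adjusted p = 2.19e-12), MYD88 at -0.67 ± 0.037 (adjusted p = 3.32e-13) and TLR10 at -0.15 ± 0.032 (adjusted p = 0.000320) had all 6 libraries below all 3 controls. How many of all genes tested did so was not counted. Each of these 3 genes gave an exact two-sided permutation p of 0.0119, the smallest that 6 libraries against 3 can give. That p treats the 6 libraries as alike, although they come from 2 shRNAs, which differed in MYD88 and UNC93B1. For 3 libraries against 3 the smallest p is 0.1, which every separated pair of constructs reached. The mean hides opposite or unequal effects for the others. TLR7 at -1.08 rests on sh72, TLR9 at -0.44 on sh68, and IRAK4 at -0.16 averages a rise and a fall. When the 6 libraries were fitted as 1 group, the difference between shRNAs counted as spread. In that fit 3 of the 10 passed, all as lower: UNC93B1 (adjusted p = 0.000236), MYD88 (0.0146) and TLR10 (0.0235). Many other genes passed it too, 3581 in all, 1857 as higher and 1724 as lower. Whether the 10 genes stand out from these was not tested.

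The genes around the receptors were taken from lists of the pathway. Their counts stand beside the shares of all genes tested. With sh68 27.4% rose and 28.1% fell, and with sh72 24.7% rose and 26.3% fell. No list was tested against these shares, and a count near them is no result about its list. Among the other Toll-like receptors and co-receptors, 5 were tested, and 3 rose and 1 fell with sh68, as 2 rose and 1 fell with sh72. LY96 (MD-2, the lipopolysaccharide-binding partner of TLR4) rose to 13.9 CPM with sh68 and 14.0 CPM with sh72, against 7.36 CPM with shSCR, a log2 fold change of 0.92 ± 0.081 and 0.93 ± 0.082. CD180, a receptor homologue on B cells, also rose, by 0.23 and 0.16 on the log2 scale. LY86 (MD-1), its partner, moved the other way, at 48.6 and 39.4 CPM with sh68 and sh72 against 87.8 CPM with shSCR, a log2 fold change of -0.85 ± 0.056 and -1.16 ± 0.057. TLR8 had 11 reads and TLR3 38 reads in all 9 libraries together.

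Of 15 tested genes for folding, transport and processing of the endosomal receptors, 7 rose and 2 fell with sh68, and 5 rose and 2 fell with sh72. The list's median log2 fold change was 0.12 and 0.10. SNTB1, a syntrophin of the membrane skeleton whose part in this transport is not established, gave 1.07 with sh68 and 0.29 with sh72. SCARB2, a lysosomal membrane protein, gave 0.57 with sh68 and 0.35 with sh72. CXorf21 (TASL), an adaptor for IRF5 at the endolysosome, gave 0.63 and 0.16, and the chaperone HSP90B1 (gp96), needed to fold most Toll-like receptors, gave 0.23 and 0.17, all past the threshold. Those that fell were CTSB and LRRC59 with sh68, and CTSS and LRRC59 with sh72, named after their values were seen. The count that fell with sh72 was 1 to 3 when a library was left out, and 1 without shSCR replicate 1, shSCR replicate 2, sh72 replicate 2 or sh72 replicate 3.

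The 4 tested adaptors other than MYD88 did not fall. With sh68 all 4 rose, and with sh72 2 rose. TICAM1 (TRIF), the adaptor of TLR3 and TLR4, had 49.4 and 62.1 CPM with sh68 and sh72 against 40.3 CPM with shSCR, a log2 fold change of 0.29 ± 0.061 and 0.62 ± 0.060. TIRAP, the adaptor that bridges surface receptors to MYD88, gave 0.31 ± 0.087 and 0.48 ± 0.087. PIK3AP1 (BCAP) gave 0.17 under sh68, past the threshold, and 0.08 under sh72 (adjusted p = 0.10). Of 6 interleukin 1 family receptors that also use MYD88, only IL18RAP had enough reads to be tested, and it gave 0.09 under sh68 (adjusted p = 0.848) and 0.64 under sh72 (adjusted p = 0.139). Without sh72 replicate 1, 1 gene of this list passed as higher with sh72.

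Of 22 other IRAK, Pellino and TAK1 genes, 10 rose and 8 fell with sh68, and 6 rose and 3 fell with sh72, with medians of -0.02 and 0.0034. IRAK2, the kinase next in the myddosome, rose with sh68 by 0.58 ± 0.041, and gave -0.04 with sh72 (adjusted p = 0.417). PELI2, a Pellino ubiquitin ligase, had 10.8 CPM with sh68, 2.77 CPM with sh72 and 4.47 CPM with shSCR, a log2 fold change of 1.27 ± 0.10 and -0.70 ± 0.13, and so was split by the shRNAs as IRAK4 was. TIFA, an adaptor that binds TRAF6, rose with both, by 0.54 and 0.16, and TAB3, a TAK1 partner, fell with both, at -0.36 and -0.24. Of 16 inhibitors of the pathway, 3 rose and 8 fell with sh68, and 5 rose and 7 fell with sh72. TANK gave 0.56 and 0.55, RNF216 gave -0.34 and -0.46, DUSP1 gave -0.30 with sh68 (adjusted p = 0.101) and -0.62 with sh72, and TNFAIP3 (A20) gave -0.77 with sh68 and -0.05 with sh72 (adjusted p = 0.620). The order of TNFAIP3 over the constructs was thus that of TLR9.

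Downstream, 8 interferon regulatory factors were tested, of which 2 rose and 4 fell with sh68 and 1 rose and 6 fell with sh72. IRF9, a transcription factor of the type I interferon response, had 30.2 CPM with sh68, 50.5 CPM with sh72 and 81.7 CPM with shSCR, a log2 fold change of -1.43 ± 0.050 and -0.69 ± 0.048. IRF3 gave -0.75 ± 0.048 and -0.22 ± 0.047. Both had the same order of constructs as MYD88. IRF2 gave -0.08 with sh68 (adjusted p = 0.117) and -0.36 with sh72. IRF8, a B-cell factor, gave 0.09 with sh68 (adjusted p = 0.107) and -0.46 with sh72. Of 11 tested inflammatory targets of the pathway, 4 rose and 3 fell with sh68, and 2 rose and 6 fell with sh72, so the list moved in no single direction. Without sh68 replicate 2, 5 of them fell with sh68. CD40 gave -0.87 and -0.46, and CD83 gave -0.54 and -0.96. TRAF1 gave 0.98 with sh68 and -0.04 with sh72 (adjusted p = 0.751), and ICAM1 gave 0.16 with sh68 (adjusted p = 0.0869) and 0.77 with sh72.

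All 28 tested genes of the type I interferon response fell with sh68, and 26 fell and 1 rose with sh72, with medians of -1.87 and -0.91 on the log2 scale. That list had already been seen to move in these data, so its direction is no independent evidence. IFI44L had 3.35 CPM with sh68, 87.1 CPM with sh72 and 177 CPM with shSCR. IFI44 had 16.4, 120 and 250.4 CPM and IFIT1 had 1.24, 11.6 and 23.9 CPM in the same order. USP18, a brake on interferon signalling, had 1.38, 6.38 and 15.0 CPM with sh68, sh72 and shSCR. Between the shRNAs, 27 of the 28 were higher with sh72 than with sh68 and none was lower. Over all genes tested 27.2% were higher and 29.0% lower in this contrast.

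**Figure D4:**
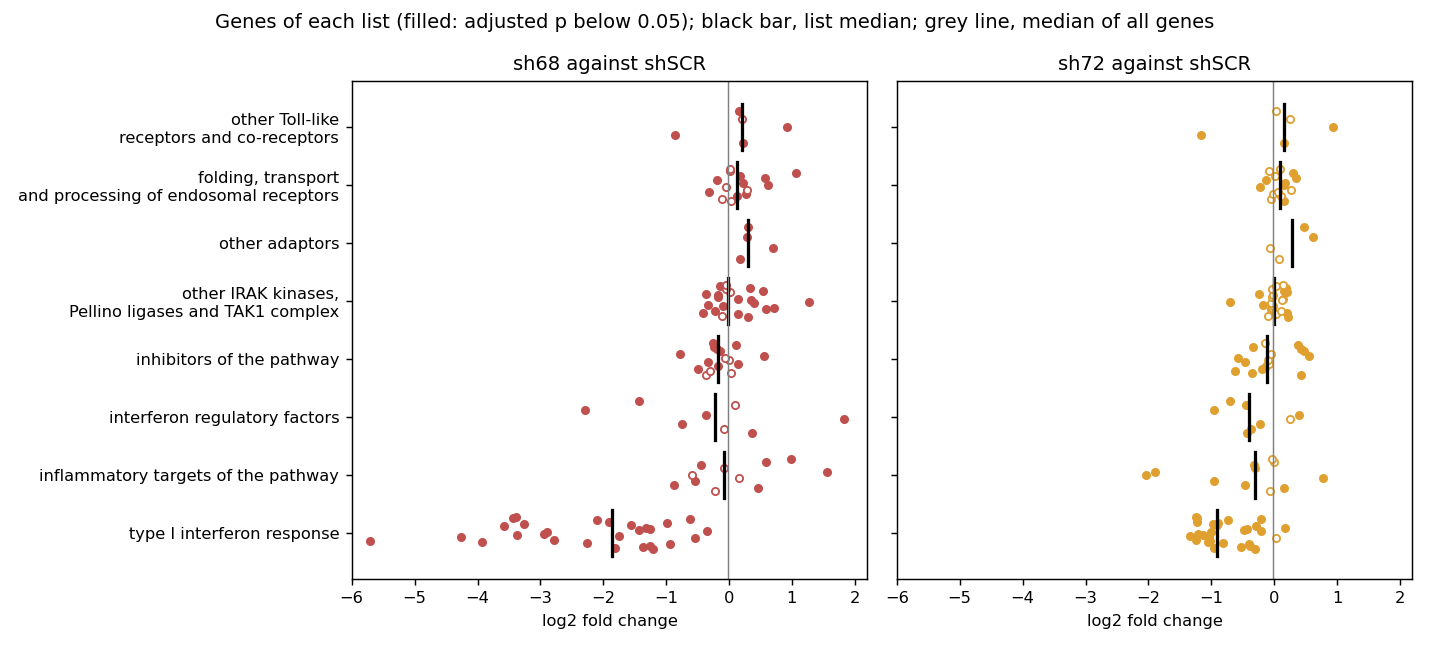
Log2 fold change of the tested genes of 8 pathway lists with sh68 (left) and sh72 (right) against shSCR, filled where the adjusted p was below 0.05, with a black bar for each list's median and a grey line for the median of all genes. The type I interferon list lies to the left, at medians of -1.87 and -0.91, and most other lists straddle 0.

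Of 9296 well-read genes compared over the 9 libraries, those with log2 CPM most like MYD88 were IFITM1 (Pearson r = 0.996), ISG15 (0.996) and IFI6 (0.995), all genes of the interferon response. For TLR7 they were CAP1 (0.997), CLNS1A (0.995) and KPNA5 (0.995), and for TLR9 SUPT6H (0.999), DNAJB2 (0.995) and SREBF1 (0.995). These correlations are descriptions: the 9 libraries fall into 3 constructs, so any genes that rank and space the constructs alike score high. The changes were far larger in the genes like MYD88, with log2 fold changes for ISG15 of -2.95 with sh68 and -1.20 with sh72. In the genes like TLR9 they were smaller or alike, with -0.34 and -0.04 for SUPT6H, and -0.70 and -0.09 for DNAJB2.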

How the data were processed

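The authors deposited raw counts, with a row for each gene symbol and a column for each library and no scaling. CASAVA 1.8.2, STAR 2.5.2, featureCounts 1.5.2 and hg38 are named in the submitters' processing notes. For the gene annotation, the strand setting and reads with several matches, the setting is not given in the sources used here. Columns are named sh68 and sh72 while the sample labels number the shRNAs. No label links the 2, so the columns' names are kept. P values measure the spread between these cultures.

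Genes were kept by filterByExpr, which left 15725 of 26816, and libraries were scaled by TMM. One edgeR 4.0.16 quasi-likelihood model in R 4.3.3 (with limma 3.58.1) with a term for each construct covered the 9 libraries (common biological coefficient of variation 0.0394). Benjamini-Hochberg adjustment ran over the 15725 genes, and an adjusted p below 0.05 counts as passing. Each SE is the absolute log2 fold change divided by the root of F. CPM divides by the whole library total multiplied by its TMM factor. RPKM divides by exonic bases in GENCODE 29, whose GRCh38 positions are given.

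The 10 genes, the 9 pathway lists and the marker lists were chosen with earlier results of these data known. From each list up to 4 genes called in the mean contrast were named by size of change, at an average log2 CPM of at least 0. This rule can pass over genes that the shRNAs moved in opposite directions. Such genes, past the threshold with both, were IL1B (1.55 with sh68, -1.89 with sh72), IRF1 (0.37, -0.44) and IRF5 (-0.37, 0.40). TLR3, TLR8, EPCAM, IL1B, IRF1, IRF5, the fallen transport genes and TNFAIP3's likeness to TLR9 were named after their values were seen. The fit was tested on simulated data. Other settings tried were DESeq2 1.42.0, RLE scaling, library size alone, no filter, 1 CPM in 3 libraries, limma-voom, the compared groups alone, a replicate block, a robust fit, and each library left out. No label says that a replicate number marks a shared batch, and libraries with the same number had residual correlations of -0.0358 to 0.0724.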

Additional observations from a re-analysis of the deposited data

Results flagged for a closer look

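The effects of the 2 shRNAs against KDM1A differed from each other in 8 of the 10 genes, by edgeR's quasi-likelihood test of sh72 against sh68 over all genes tested, of which 56.2% passed in this contrast. IRAK4 was lower with sh72 by a log2 value of -0.87 (adjusted p = 1.99e-14), and TLR7 by -1.77 (adjusted p = 6.40e-10). TLR9 was higher with sh72 by 0.67 (adjusted p = 8.75e-11), MYD88 by 0.55 (adjusted p = 2.38e-10) and IRAK1 by 0.36 (adjusted p = 3.88e-06). Smaller differences were those of TLR6 at 0.21 (adjusted p = 0.00301), UNC93B1 at 0.19 (adjusted p = 0.00303) and TLR1 at 0.15 (adjusted p = 0.0171). In all 8 genes the 3 sh72 libraries lay wholly on one side of the 3 sh68 libraries. How many of all genes tested separated in this way was not counted, so this adds no support for these 8. The B-cell markers, summed at 2605 to 2772 CPM with sh72 and 4123 to 4247 CPM with sh68, moved with the same contrast, and their part in these differences was not tested. For none of the 10 genes did a library stand far from the other 5 among the 6 libraries of both shRNAs. That check pools shRNAs that lay apart in 8 of the 10 genes, so it could hardly single out a library in those. A library far from the others of its own construct was not looked for in this way, at 3 a construct, and IRAK1 in sh72 replicate 1, at 243 CPM, stood above 205 and 195 CPM in the other sh72 libraries.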

How the results depend on the processing

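For the 10 genes in 4 contrasts, 341 of the values under other settings and 335 of those with a library left out kept their direction and their side of the threshold, 14 and 16 lost the call, 2 and 4 gained it, and 3 and 5 changed sign. The sign changes concern 2 uncalled values. TLR10 for sh72 against sh68 was -0.01, and 0.00092 with library size alone, 0.0029 without a filter, 0.0066 with the compared groups alone, and -0.035 to 0.013 with a library left out. IRAK1 in the mean contrast was 0.04, and -0.0090 without sh72 replicate 1 (-0.0090 to 0.086 over all libraries left out). With the 6 libraries of both shRNAs as 1 group, the mean contrast called 3 of the 10 genes, 0 higher and 3 lower, and 3581 genes, 1857 higher and 1724 lower, since the difference between shRNAs then counts as spread. Leaving out a library gave 1 to 2 genes higher with sh68, since TLR1 passed at 0.16 (adjusted p = 0.0163) without sh68 replicate 1 and TLR6 at 0.17 (adjusted p = 0.0198) without sh68 replicate 2. The replicate block called 6, 10, 8 and 9 of the 10 genes for sh68 and sh72 against shSCR, sh72 against sh68 and the mean, where it called 9173, 8436, 9190 and 8631 of all 15725 genes. It added TLR9 with sh72 (-0.11, adjusted p = 0.0391) and TRAF6 in the mean (-0.13, adjusted p = 0.0347). List counts moved by over 1.5 times in 71 of 1296 cases. Depth limits TLR7 with sh72 most, at 33 to 39 reads a library.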
